A study of Mus musculus with 14 samples.

Results

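The highest-share spots of the spleen for lymphoid transcripts were compared between C1qa knockout and wild-type mice on Visium arrays, in which each barcoded spot captures RNA from a small region that can hold several cells of different types. Spots were chosen by measured expression: in each of 4 sections, spots over tissue were kept if 1000 or more genes were detected and under 1% of their UMIs (counted RNA molecules) came from 8 genes of exocrine pancreas, were ranked by the share of UMIs from 12 lymphoid genes (Cd79a, Cd79b, Ms4a1, Ighm, Ighd, Cd22, Cd3d, Cd3e, Cd3g, Trac, Lck and Tcf7), and the highest 25% were kept. This gave 1411 of 5651 passing spots, out of 6151 in-tissue spots in these spleens and 17319 in the 14 sections of the series. The groups were 2 wild-type spleens (WT1 and WT2) and 2 C1qa knockout spleens (KO1 and KO2). All 4 mice were untreated, were 3 months old by the sample labels (the text of the study gives another age), and came from matings between C1qa heterozygous mice. The sources used here name no tissue restriction of the knockout and give neither sex nor litter. The series mapped blood-forming organs of mice by spatial transcriptomics to locate erythroid cells and macrophages, and the cross addressed what loss of C1qa changes. Each section was 1 sample, so n = 2 per genotype, and p-values measure the spread between these sections.

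As background, the white pulp of the spleen holds the T cell zone around arterioles, B cell follicles and, at its border, the marginal zone, whereas the red pulp filters blood and holds macrophages, erythroid cells and, along its cords, plasma cells. B cells carry IgM encoded by Ighm on their surface, and plasma cells secrete antibody and hold far more immunoglobulin RNA per cell. C1q, the recognition molecule of the classical complement pathway, is assembled from the products of C1qa, C1qb and C1qc, is made mainly by macrophages in tissues, and binds immune complexes and dying cells.

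The high-share spots numbered 356 in WT1, 406 in WT2, 316 in KO1 and 333 in KO2 and held 5366993, 1044683, 2740547 and 4552377 UMIs. WT2 was the shallowest section, with a median of 2350 UMIs per high-share spot against 14646.5 in WT1, 8235.5 in KO1 and 13125 in KO2. The last spot inside the highest 25% had a share of 1.365% in WT1, 1.60565% in WT2, 1.80664% in KO1 and 1.81669% in KO2, and the first spot outside had 1.36487%, 1.60555%, 1.80404% and 1.81646%. The spots formed patches and scattered single spots rather than a separate field: 49.1%, 38.9%, 50.1% and 46.4% of the array neighbours of a high-share spot were high-share spots too.

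**Figure D1:**
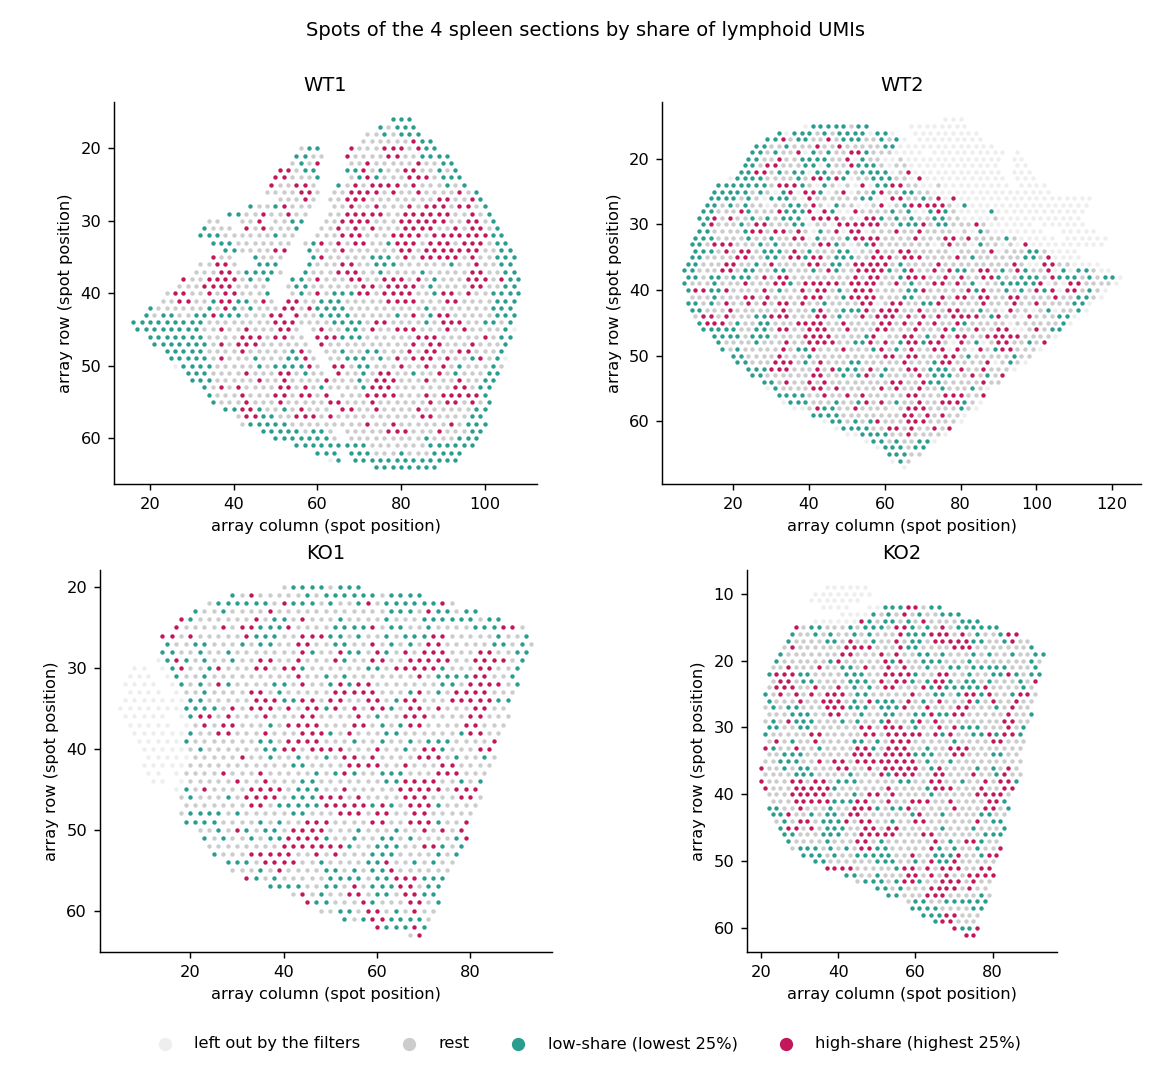
Array position of every in-tissue spot of the 4 sections (columns and rows of the array, in spot positions), coloured by the lymphoid share: highest 25% (high-share), lowest 25%, the rest and spots left out. High-share spots (356, 406, 316 and 333) lie in patches through all 4 sections, and in WT1 the low-share spots follow the edge of the tissue.

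The label of white pulp did not hold for these spots in all sections. Ighm alone took 48.9% of the 12-gene UMIs in the high-share spots of WT1, 68.2% in WT2, 79.0% in KO1 and 79.7% in KO2. The level of Ighm in high-share over low-share spots (the lowest 25% of the same section) was 2.44, 6.12, 7.36 and 6.75 in WT1, WT2, KO1 and KO2. That of Jchain, the joining chain of secreted IgM and IgA, which the rule did not use, was 1.58, 6.13, 10.9 and 9.56. These ratios were lowest in WT1 and highest in both knockouts. The B cell gene Ms4a1 gave 2.80, 2.64, 1.19 and 1.46, and Cr2, the complement receptor of marginal-zone B cells, follicular B cells and follicular dendritic cells, gave 3.66, 3.01, 1.05 and 1.15. Over these genes and Cd79a, Cd79b, Ighd, Cd22, Fcer2a and Cxcr5 the ratios ran from 1.05 to 1.64 in the knockouts and from 1.85 to 3.66 in the wild types. The T cell genes went the other way in 3 of the 4 sections. The ratio was 1.30, 0.744, 0.489 and 0.509 for Cd3e and 1.39, 0.519, 0.502 and 0.463 for Trbc2, the constant region of the T cell receptor beta chain. Hmox1, which degrades heme in red-pulp macrophages, had ratios of 0.339 in WT1, 0.833 in WT2, 1.02 in KO1 and 1.06 in KO2. The erythroid genes Hbb-bt (0.155, 0.215, 0.416 and 0.666) and Slc4a1 (0.138, 0.182, 0.358 and 0.680) were below 1 in all 4 sections, the knockouts included. The marker chemokines Ccl19 and Ccl21a had no entry among the measured genes. These ratios describe spots that were chosen by expression and carry no test. The spots are therefore called high-share spots below.

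Genes with the highest high-over-low ratio in all 4 sections, picked after their values were seen, were mostly immunoglobulin genes, 9 of the leading 10. Ighg3, the constant region of IgG3, had ratios of 2.43, 8.18, 6.15 and 7.44, and Igkc, the kappa light chain constant region, 2.01, 4.39, 5.62 and 5.57. The exception among the leading 10 was Mzb1, a chaperone of marginal-zone B and plasma cells. Within single high-share spots, Ighm reached 4.07% of UMIs in WT1, 6.73% in WT2, 11.1% in KO1 and 10.1% in KO2. Igkc reached 8.14%, 13.6%, 27.8% and 24.5%. Across all passing spots, the Pearson correlation of log2 levels of Ighm and Jchain was 0.494 in WT1 (n = 1426 spots), 0.558 in WT2 (n = 1627), 0.781 in KO1 (n = 1264) and 0.797 in KO2 (n = 1334). That of Ighm with Ms4a1 was 0.295, 0.160, -0.123 and -0.0745. Spots of a section share library and depth, so these coefficients are descriptions.

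**Figure D2:**
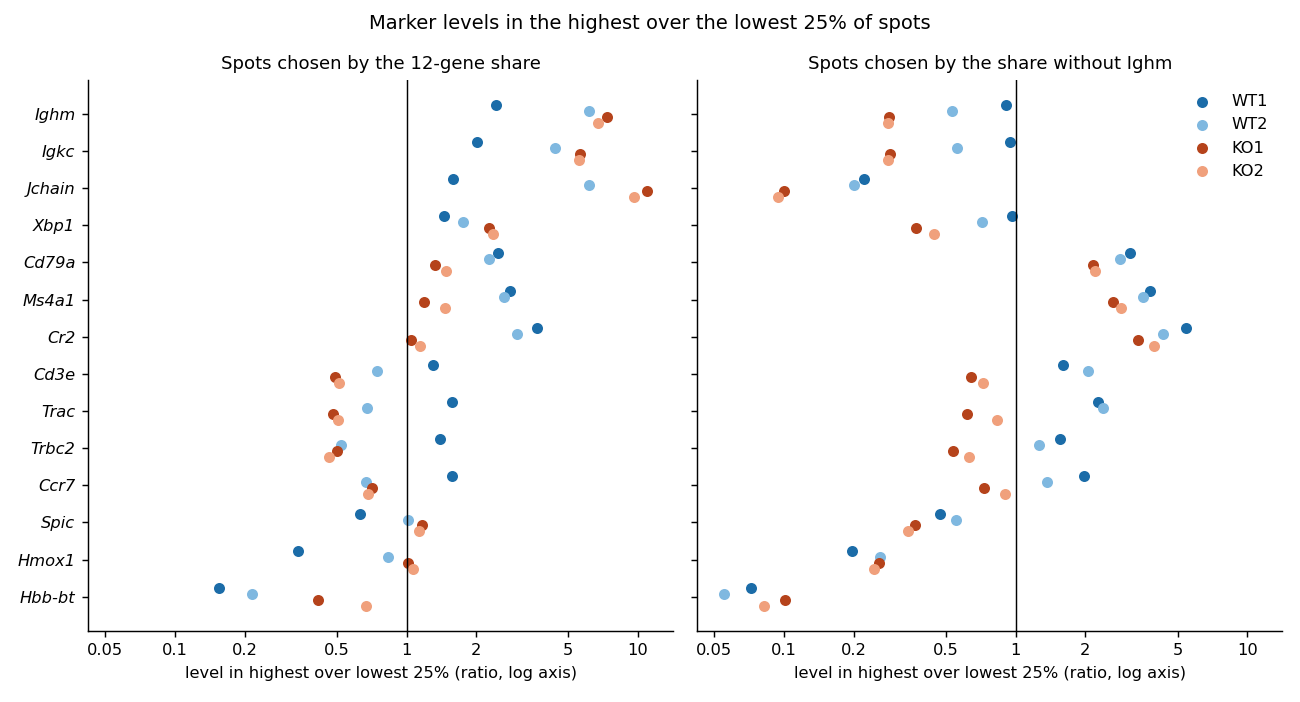
Level in the highest over the lowest 25% of spots (ratio, log axis; line at 1) for 14 marker genes, 1 point per section, with both sets chosen by the 12-gene share (left) or by the same share without Ighm (right). With the 12 genes, Cd3e lies at 1.30 in WT1 and at 0.489 and 0.509 in the knockouts, and without Ighm the ratio of Jchain falls to 0.220, 0.20, 0.0997 and 0.0944.

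C1qa was all but absent from the knockouts, as their labels state. Levels are given as scaled CPM, that is UMI counts scaled to a common total (CPM) and divided by the TMM factor of the section (the trimmed mean of log ratios of edgeR), which corrects for a few abundant genes taking up reads. C1qa had 827 and 258 counts in the high-share spots of WT1 and WT2, 1 count in KO1 and 0 in KO2. Per UMI, the wild types together were 1234-fold higher (exact 95% interval 221 to 48790, counting error only). A count of 0 in KO2 allows up to 0.659 CPM. The other subunits were present in the knockouts and were higher than in the wild types. C1qb, the B chain, stood at 48.3 and 52.7 in the wild types and 94.5 and 164 in the knockouts (scaled CPM; log2 fold change 1.38 ± 0.22 (SE), adjusted p = 0.00129). The 2 groups did not overlap, and KO2 was the highest section. C1qc, the C chain, stood at 139 and 236 in the wild types and 291 and 377 in the knockouts (log2 fold change 0.87 ± 0.21 (SE), adjusted p = 0.0169). In low-share spots the log2 fold changes were 0.68 (adjusted p = 0.073) and 0.23 (adjusted p = 0.487), and the test of genotype by region passed for neither (adjusted p = 0.0777 and 0.13). C1qc did not pass with DESeq2 (adjusted p = 0.229), and without KO2 the adjusted p was 0.092 for C1qb and 0.34 for C1qc.

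The 3 genes lie side by side on mouse chromosome 4 in RefSeq GRCm38.p6, the assembly of the build mm10 named in the labels: C1qb at chr4:136880126-136886200, C1qc at chr4:136889801-136892936 and C1qa at chr4:136895916-136898844. The promoter windows of the other subunits are shown from RefSeq, 250 bases before to 50 after the start, because both were higher in the high-share spots of the knockouts and lie beside the targeted gene. Capitals mark AGGAAGT on either strand (here its reverse complement ACTTCCT), the core bound by ETS factors such as PU.1 of macrophages, which begins 53 bases before the start of C1qb and 195 before that of C1qc. This motif is present in 9.35% of 32851 mouse promoter windows of this length.
C1qb promoter, chr4:136886151-136886450, minus strand: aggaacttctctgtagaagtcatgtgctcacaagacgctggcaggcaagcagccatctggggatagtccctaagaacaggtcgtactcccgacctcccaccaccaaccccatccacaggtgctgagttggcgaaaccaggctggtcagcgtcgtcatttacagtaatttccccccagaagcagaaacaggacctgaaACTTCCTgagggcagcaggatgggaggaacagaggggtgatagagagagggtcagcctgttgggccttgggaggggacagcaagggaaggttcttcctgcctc
C1qc promoter, chr4:136892865-136893164, minus strand: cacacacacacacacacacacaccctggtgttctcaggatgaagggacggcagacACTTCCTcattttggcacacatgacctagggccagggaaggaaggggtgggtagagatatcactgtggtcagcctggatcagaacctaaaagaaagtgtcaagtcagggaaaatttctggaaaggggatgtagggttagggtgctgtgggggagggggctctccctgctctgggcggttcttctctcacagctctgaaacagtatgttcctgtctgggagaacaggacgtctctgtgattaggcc
A match is a string of letters and no evidence of binding.

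Across the genome, 966 of 17705 tested genes were higher in the knockouts (5.46%) and 200 were lower (1.13%) in high-share spots, at an edgeR adjusted p under 0.05. Differences are reported against a median log2 fold change of -0.07 over all tested genes. DESeq2 called 430 higher and 18 lower (96.0% higher). Scaling by upper quartiles moved that median to -0.30 and the calls to 323 higher and 452 lower, so that the higher calls were 82.8% of all calls with TMM and 41.7% with upper quartiles. With that scaling the medians of 9 of the lists outside the rule genes turned from positive to negative, those of B cells, stroma, marginal-zone macrophages, class II presentation, complement, immediate early and heat shock, cell cycle, megakaryocytes and exocrine pancreas, while none of the 81 named genes past the test changed direction. Without KO2, 127 genes passed. In bulk spots, fewer cells of a type and less RNA per cell cannot be told apart.

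Plasma cell genes had the highest median change of the lists in these spots. Of 9 antibody constant genes outside the rule, 4 were higher in the knockouts (Ighg2b, Ighg2c, Ighg3 and Igkc) and 0 lower. Over all tested genes 5.46% were higher and 1.13% lower. Of 14 plasma cell genes, 8 rose and 0 fell, with a median log2 fold change of 0.95, and both knockout sections lay above both wild types for 11 of them, against 27.1% of all genes above and 29.1% below. Ighg2b, the constant region of IgG2b (chr12:113304314-113307933), was measured at 83.7 and 354 in the wild types and 1907 and 2115 in the knockouts (log2 fold change 3.27 ± 0.38 (SE), adjusted p = 4.47e-05). The lower knockout was more than 5 times the higher wild type. Igkc (chr6:70726435-70726754) was at 13710.0 and 32388 in the wild types and 72300.0 and 72678 in the knockouts (log2 fold change 1.66 ± 0.37 (SE), adjusted p = 0.0101), with WT1 far below WT2 and the knockouts nearly equal. Jchain was at 562 and 1969 in the wild types and 3782 and 4007 in the knockouts (log2 fold change 1.64 ± 0.34 (SE), adjusted p = 0.00714). Xbp1, the transcription factor that drives the secretory program of plasma cells, was at 104 and 148 in the wild types and 228 and 275 in the knockouts (log2 fold change 1.04 ± 0.19 (SE), adjusted p = 0.00335). Derl3, of the endoplasmic reticulum degradation machinery, was at 37.6 and 62.6 in the wild types and 105 and 97.4 in the knockouts (log2 fold change 1.12 ± 0.22 (SE), adjusted p = 0.00427). For these genes the 2 groups did not overlap in any case. Also past the test were Ighg2c (log2 fold change 2.01), Tnfrsf17, which encodes the plasma cell receptor BCMA (1.26), and Sdc1, the plasma cell proteoglycan CD138 (0.87). Igha, the constant region of IgA, did not pass, at 471 and 1918 in the wild types and 683 and 683 in the knockouts (adjusted p = 0.154). Ighm, which the rule used, is given as a description: 7021 and 15159 in the wild types and 26988 and 29987 in the knockouts. Of 9 tested kappa variable genes, 3 were higher and 1 lower, with Igkv19-93 at 182 and 209.7 in the wild types and 1089 and 897 in the knockouts (log2 fold change 2.35 ± 0.20 (SE), adjusted p = 2.4e-07). Immunoglobulin genes are near-identical families, so that probe signal may be shared among members. Plasma cell genes shared spots with Ighm, which chose the spots, so their values are not independent of the rule. Jchain (adjusted p = 0.229), Igkc (adjusted p = 0.0728) and Ighg2c (adjusted p = 0.424) did not pass with DESeq2. DESeq2 called 4 of the 14 higher, and 4 passed without KO2.

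These differences moved with the choice of spots. With Ighm left out of the share, a setting added after Ighm was seen to dominate it, 17.1% and 17.4% of the spots were shared with the 12-gene choice in KO1 and KO2 (63.5% in WT1 and 35.5% in WT2). On those spots 6.07% of tested genes were higher in the knockouts and 1.18% lower. Ighg2b was still higher (log2 fold change 2.09, adjusted p = 3.02e-07), as were Jchain (0.69, adjusted p = 0.0206) and Igkc (0.68, adjusted p = 0.0175). Over the plasma cell list 5 genes were then higher and 1 lower, and the median was 0.20, below those of the germinal centre (0.59), class II presentation (0.50) and B cell (0.43) lists. Xbp1 (0.19, adjusted p = 0.533) and Derl3 (0.20, adjusted p = 0.616) did not pass. Neither C1qb (0.51, adjusted p = 0.169) nor C1qc (0.26, adjusted p = 0.392) passed on those spots, and neither did the macrophage genes Spic (0.35, adjusted p = 0.353), Vcam1 (0.52, adjusted p = 0.0655) and Cd163 (0.59, adjusted p = 0.309), which were higher with C1qb and C1qc in high-share spots. The part of macrophage content in the C1q values was not tested.

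**Figure D3:**
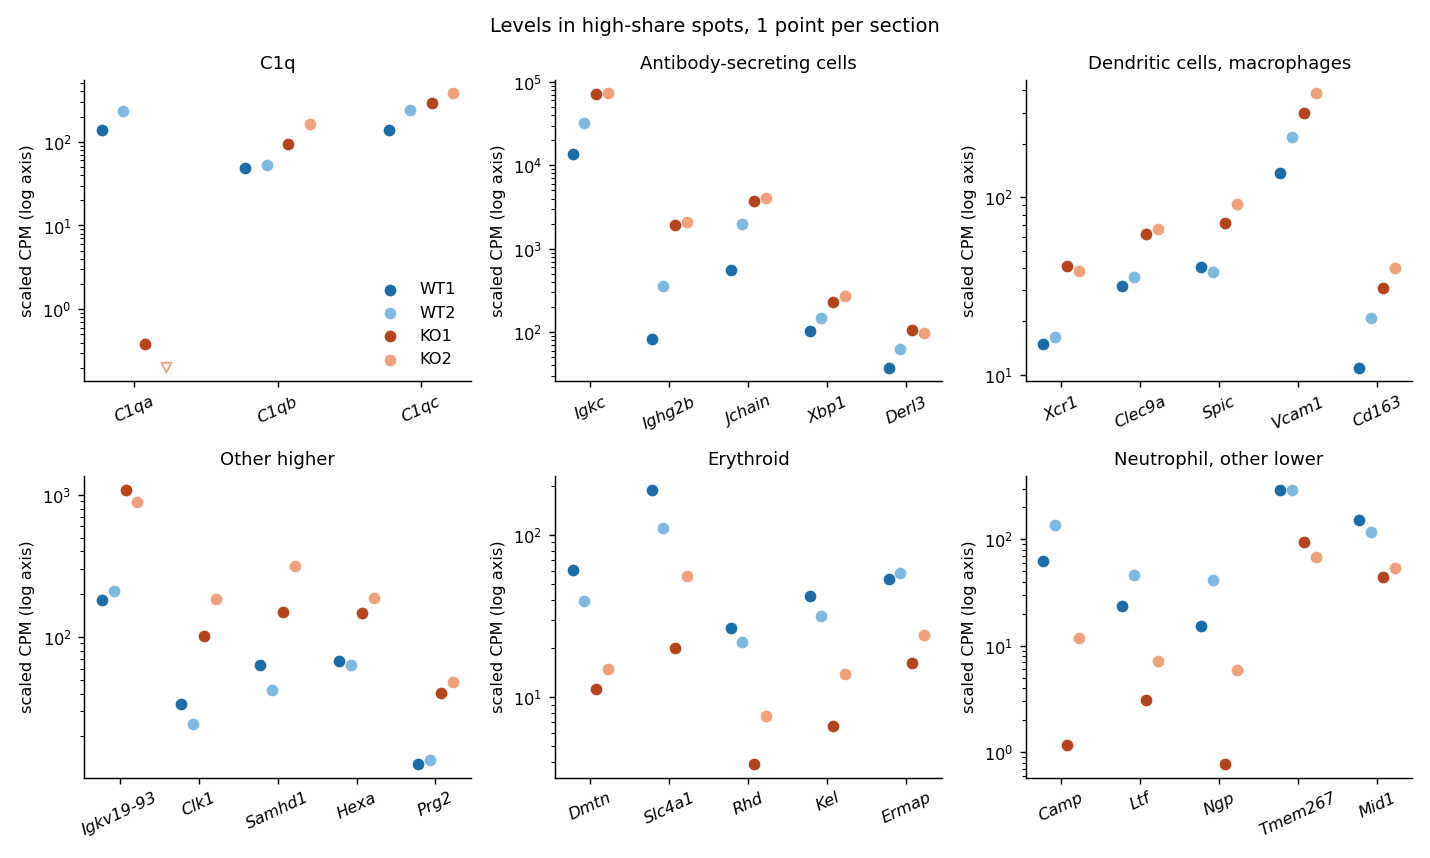
Scaled CPM in high-share spots (log axis), 1 point per section, for C1q, plasma cell, dendritic cell and macrophage, other higher, erythroid and neutrophil or other lower genes. The open triangle marks the count of 0 for C1qa in KO2, and for Ighg2b the knockouts lie at 1907 and 2115 above 83.7 and 354.

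Outside the antibody genes, the 12 genes higher in the knockouts with the smallest adjusted p included signaling and enzyme genes. Clk1, a kinase of splicing factors, stood at 33.8 and 24.5 in the wild types and 102 and 184 in the knockouts (log2 fold change 2.22 ± 0.25 (SE), adjusted p = 2.66e-05). Samhd1, which hydrolyzes deoxynucleotides and restricts retroviruses, stood at 63.7 and 42.7 in the wild types and 149 and 315 in the knockouts (log2 fold change 2.06 ± 0.26 (SE), adjusted p = 0.000172). In both genes KO2 was well above KO1, and the groups did not overlap. Hexa, a subunit of lysosomal hexosaminidase, was at 67.2 and 63.6 in the wild types and 147 and 188 in the knockouts (log2 fold change 1.35 ± 0.19 (SE), adjusted p = 0.000522). Prg2, the major basic protein of eosinophils, was at 12.8 and 13.6 in the wild types and 40.1 and 47.9 in the knockouts (log2 fold change 1.76 ± 0.25 (SE), adjusted p = 0.000668). Ptpn22, a phosphatase that restrains antigen receptor signaling, was at 107 and 115 in the wild types and 227 and 299.9 in the knockouts (log2 fold change 1.26 ± 0.19 (SE), adjusted p = 0.000786). Lax1, a membrane adaptor of lymphocytes, was at 68.9 and 42.7 in the wild types and 138 and 173 in the knockouts (log2 fold change 1.40 ± 0.21 (SE), adjusted p = 0.000786). The rest were Pip4k2a, a phosphoinositide kinase (1.74), Usp34, a deubiquitinase (1.42), Fxr1, an RNA-binding protein (1.89), and Cd55, described with complement. All 12, Ighg2b and Igkv19-93 included, passed whichever section was left out.

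Of 19 complement genes other than C1qa, 5 were higher and 0 lower (median 0.21), against 5.46% and 1.13% of all tested genes. Besides C1qb and C1qc they included Cd55, which speeds the decay of C3 convertases, and Itgax, a chain of complement receptor 4. Cd55 stood at 101 and 69 in the wild types and 194 and 257 in the knockouts (log2 fold change 1.36 ± 0.20 (SE), adjusted p = 0.000786), and also passed with Ighm left out of the share (1.20, adjusted p = 9e-05). For C3, the central component, the levels were 523 and 667 in the wild types and 609 and 808 in the knockouts, and for C4b 157 and 236 in the wild types and 162 and 179 in the knockouts. The groups overlapped for both. Of 19 genes of dead-cell clearance, 4 were higher and 0 lower (median 0.23), with Calr, the chaperone and eat-me signal calreticulin, at 421 and 498 in the wild types and 771 and 881 in the knockouts (log2 fold change 0.85 ± 0.19 (SE), adjusted p = 0.00873). Mertk, a receptor for dying cells, had a log2 fold change of 0.79 (adjusted p = 0.0315), and Itgav and Cd36 of 0.78 and 0.64. Calr also serves protein folding in secretory cells.

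Among dendritic cell genes, 6 of 15 were higher and 0 lower (median 0.67). Over all tested genes 5.46% were higher and 1.13% lower. Xcr1, a chemokine receptor of cross-presenting dendritic cells, stood at 15 and 16.3 in the wild types and 41.2 and 38.4 in the knockouts (log2 fold change 1.37 ± 0.24 (SE), adjusted p = 0.00257). Clec9a, their receptor for dead cells, stood at 31.6 and 35.4 in the wild types and 62.2 and 66.4 in the knockouts (log2 fold change 0.97 ± 0.21 (SE), adjusted p = 0.00747). The 2 groups did not overlap for either gene. Zbtb46, a transcription factor of conventional dendritic cells, was at 72.6 and 79 in the wild types and 140.4 and 127 in the knockouts (log2 fold change 0.83 ± 0.18 (SE), adjusted p = 0.00866). Flt3, Siglech and Itgax, which is also in the complement list, completed the 6. Of 12 red-pulp macrophage genes, 5 were higher and 0 lower (median 0.54). The other red-pulp macrophage genes, Hmox1, Slc40a1, Adgre1, Trf, Csf1r, Fcgr1 and Treml4, did not pass. Spic, the transcription factor of these cells, stood at 40.4 and 38.1 in the wild types and 72 and 91.3 in the knockouts (log2 fold change 1.05 ± 0.20 (SE), adjusted p = 0.00411), and Vcam1, an adhesion molecule, at 137 and 218 in the wild types and 299 and 385 in the knockouts (log2 fold change 0.98 ± 0.21 (SE), adjusted p = 0.00714). Cd163, the hemoglobin scavenger receptor, stood at 11 and 20.9 in the wild types and 30.7 and 40 in the knockouts (log2 fold change 1.38 ± 0.29 (SE), adjusted p = 0.00715), and Hpgd and Mrc1 were also higher. Without KO2, Xcr1 alone of these dendritic cell and macrophage genes passed. None of these 5 macrophage genes and none of the 6 dendritic cell genes passed with Ighm left out of the share. The summed CPM of the macrophage list was 1659 and 1955 in the wild types and 2044 and 2295 in the knockouts. Of 10 marginal-zone macrophage genes, 2 were higher and 0 lower. These were Cd209a (1.10, adjusted p = 0.00714) and Mertk, which is also in the dead-cell list. Marco (-0.06, adjusted p = 0.891), Cd209b (0.11, adjusted p = 0.809) and Siglec1 (-0.30, adjusted p = 0.537) of this list did not pass.

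Among lymphocyte genes outside the rule, B cell genes were called no more often than all tested genes (5.46% higher and 1.13% lower). Of 26 B cell genes, 1 was higher and 0 lower (median 0.08), namely Pou2af1, a transcriptional coactivator of B cells, at 424 and 371 in the wild types and 634 and 635 in the knockouts (log2 fold change 0.67 ± 0.18 (SE), adjusted p = 0.0267). Cr2 did not pass, at 666 and 275 in the wild types and 674 and 737 in the knockouts (adjusted p = 0.169), with both knockouts above both wild types but KO1 close to WT1. Of 25 T cell genes, 7 were higher and 0 lower (median 0.56). Il7r, the interleukin 7 receptor, was at 1.66 and 0.908 in the wild types and 5.83 and 20.5 in the knockouts (log2 fold change 3.15 ± 0.56 (SE), adjusted p = 0.00256), with KO2 well above KO1. Its counts were low, 10 and 1 in the wild types and 15 and 80 in the knockouts, with WT2 below the floor of 3 counts. Cd8a, the coreceptor of cytotoxic T cells, was at 23.1 and 39 in the wild types and 51.3 and 66.9 in the knockouts (log2 fold change 1.07 ± 0.24 (SE), adjusted p = 0.0116). Skap1, Cd28, Lef1, Zap70 and Icos also passed. None of them passed without KO2, where Icos was not tested, and DESeq2 called 1 of the 25. With Ighm left out of the share 2 passed, Il7r and Icos, and the median was 0.20. The ratio of B cell to T cell UMIs over these lists was 5.01 in WT1, 2.65 in WT2, 3.36 in KO1 and 2.58 in KO2. Spots with more T cell than B cell UMIs were 0 of 356 in WT1 (Wilson 95% interval up to 1.07%), 35 of 406 in WT2 (8.62%), 14 of 316 in KO1 (4.43%) and 34 of 333 in KO2 (10.2%). WT2 lay between the knockouts in both measures. As a description, the rule gene Cd79a stood at 2293 and 2109 in the wild types and 2196 and 1880.1 in the knockouts. Cd3e stood at 146 and 291 in the wild types and 180.1 and 265 in the knockouts.

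Of 14 germinal centre genes, 5 were higher and 0 lower (median 0.32). Gcsam, a signaling adaptor of germinal centre B cells, stood at 8.32 and 9.99 in the wild types and 17.1 and 26.9 in the knockouts (log2 fold change 1.36 ± 0.31 (SE), adjusted p = 0.0128), and Bcl6, their defining transcription factor, at 101 and 91.7 in the wild types and 153 and 145.1 in the knockouts (log2 fold change 0.62 ± 0.18 (SE), adjusted p = 0.0369). Nuggc, Cd38 and Hmces also passed. DESeq2 called 0 of the 14, and none of the 5 passed without KO2. Of 13 cell cycle genes, Top2a, a topoisomerase of dividing cells, alone was higher (19 and 16.3 in the wild types and 35.8 and 46.9 in the knockouts, log2 fold change 1.19 ± 0.24 (SE), adjusted p = 0.00624). Of 11 class II presentation genes, H2-Aa alone was higher (0.76, adjusted p = 0.0347), although both knockouts lay above both wild types for 10 of the 11, against 27.1% of all genes. With upper-quartile factors 0 of the 11 were higher and 1 was lower (median -0.01). Of 18 interferon-stimulated genes, 2 were higher, the interferon-inducible GTPases Igtp (0.93, adjusted p = 0.0166) and Iigp1 (0.84, adjusted p = 0.0448). Of 15 immediate early and heat shock genes, 4 were higher, all of them heat shock genes. Hsp90aa1 stood at 212 and 229 in the wild types and 448 and 399 in the knockouts (log2 fold change 0.95 ± 0.17 (SE), adjusted p = 0.00325), and Hsph1 at 31 and 44.5 in the wild types and 102 and 62.8 in the knockouts (log2 fold change 1.20 ± 0.24 (SE), adjusted p = 0.00523). The immediate early gene Fos was not among them. The part of the heat shock genes in the other results was not tested. No gene passed among 18 of lymphoid stroma and zone chemokines, 10 of megakaryocytes and platelets, 11 of exocrine pancreas (the 8 filter genes were used to choose spots) and 10 of mesothelium, capsule and muscle. Over all tested genes 5.46% were higher and 1.13% lower, so counts of 0 or 1 in lists of these sizes are near that share.

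**Figure D4:**
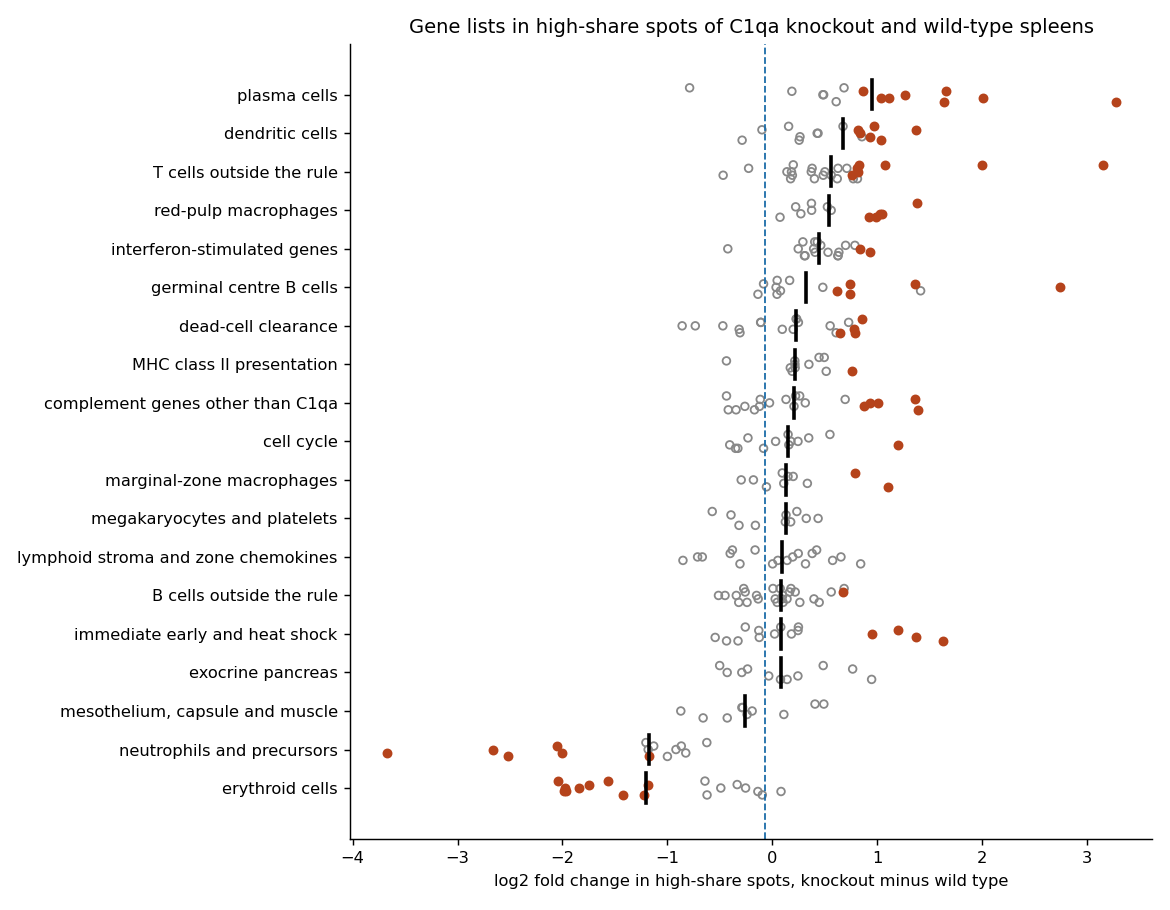
Log2 fold change (knockout minus wild type) in high-share spots for the tested members of 19 gene lists. Filled points passed an edgeR adjusted p under 0.05, open points did not, black bars are list medians and the dashed line is the median of all genes (-0.07). Plasma cell genes have the highest median (0.95) and erythroid genes the lowest (-1.20).

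Erythroid and neutrophil genes were lower in the knockouts. Of 18 erythroid genes, 10 fell and 0 rose (median -1.20), against 1.13% and 5.46% of all tested genes. Slc4a1, the band 3 anion exchanger of red cells, stood at 191 and 109.9 in the wild types and 20.2 and 56.1 in the knockouts (log2 fold change -1.97 ± 0.30 (SE), adjusted p = 0.000786). Dmtn, dematin of the red cell skeleton, stood at 60.9 and 39 in the wild types and 11.3 and 14.9 in the knockouts (log2 fold change -1.98 ± 0.26 (SE), adjusted p = 0.000247). Rhd, the Rh blood group antigen, stood at 26.8 and 21.8 in the wild types and 3.89 and 7.69 in the knockouts (log2 fold change -2.04 ± 0.33 (SE), adjusted p = 0.00127), and Ermap, an erythroid membrane protein, at 53.9 and 58.1 in the wild types and 16.3 and 24.4 in the knockouts (log2 fold change -1.42 ± 0.23 (SE), adjusted p = 0.00141). The 2 groups did not overlap for these genes, and KO1 was the lowest section in each. Kel, of the Kell blood group, and the water channel Aqp1 had log2 fold changes of -1.85 and -1.45, and Tmcc2 of -1.67. The globin gene Hbb-bt did not pass: its levels of 3249 and 931 in the wild types and 843 and 3084 in the knockouts overlapped (adjusted p = 0.903). The summed CPM of the erythroid list was 36553 and 11940.5 in the wild types and 7699 and 27205 in the knockouts, and these overlapped. DESeq2 called 2 of the 18 genes lower. Slc4a1 (adjusted p = 0.110) and Tmcc2, which is outside the list (adjusted p = 0.125), did not pass with DESeq2.

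Of 14 neutrophil genes, 6 fell and 0 rose (median -1.18), against 1.13% and 5.46% of all tested genes. Camp, the cathelicidin peptide, stood at 62.4 and 136 in the wild types and 1.17 and 11.8 in the knockouts (log2 fold change -3.67 ± 0.43 (SE), adjusted p = 4.47e-05). Ltf, lactoferrin of the secondary granules, stood at 23.5 and 46.3 in the wild types and 3.11 and 7.18 in the knockouts (log2 fold change -2.52 ± 0.37 (SE), adjusted p = 0.000786). Ngp, Elane and Lcn2, other granule genes, had log2 fold changes of -2.67, -2.01 and -2.05, and S100a9 of -1.17. WT2 was the highest section for Camp and Ltf. The summed CPM of the list was 377 and 796 in the wild types and 108 and 196 in the knockouts, with both knockouts below both wild types. DESeq2 called 1 of the 14 lower, and Camp did not pass with it (adjusted p = 0.0736). Outside both lists, Tmem267 stood at 294 and 291 in the wild types and 93.7 and 68.7 in the knockouts (log2 fold change -1.86 ± 0.19 (SE), adjusted p = 7.17e-06), and Mid1, a microtubule-associated ubiquitin ligase, at 151 and 116 in the wild types and 44 and 53.6 in the knockouts (log2 fold change -1.47 ± 0.19 (SE), adjusted p = 0.000266). For Tmem267 the wild types were nearly equal, at over 3 times the higher knockout. All of the 12 genes lower with the smallest adjusted p, C1qa included, passed whichever section was left out.

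Most of the genes called in high-share spots were also called in low-share spots, 781 of 1166 (67.0%), and 779 of them in the same direction. Of the 1166, 78 passed the test of genotype by region. In low-share spots 11.6% of 17683 tested genes were higher and 8.78% lower in the knockouts. Clk1 had a log2 fold change there of 2.61 (adjusted p = 0.000382), Samhd1 of 2.43 (adjusted p = 0.000572), Tmem267 of -2.12 (adjusted p = 0.000213) and Mid1 of -1.15 (adjusted p = 0.00596). The test of genotype by region passed for none of these 4 (adjusted p = 0.539, 0.444, 0.46 and 0.469). Over all genes it passed for 2.84% of 18131, of which 383 had a higher knockout difference in high-share spots and 132 a lower one.

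Erythroid genes differed more between genotypes in low-share spots (median log2 fold change -2.74) than in high-share spots (-1.20). The summed CPM of the erythroid list in low-share spots was 198276 and 57776.5 in the wild types and 20466 and 40849 in the knockouts. Of 18 erythroid genes, 17 were lower in the low-share spots of the knockouts, and 17 passed the test of genotype by region. Of 13 cell cycle genes, 7 were lower there (median -1.12), and 7 passed that test, Top2a among them. In low-share spots 15 of 26 B cell and 13 of 25 T cell genes were higher in the knockouts, and 14 and 3 passed that test. The summed CPM there of the B cell list was 4235 and 4069 in the wild types and 7026 and 6197 in the knockouts. That of the T cell list was 1141 and 4221 in the wild types and 4007 and 5120 in the knockouts. The part of this make-up in the genotype by region terms was not tested. Slc4a1 stood in low-share spots at 1377 and 604 in the wild types and 56.5 and 82.5 in the knockouts (log2 fold change -3.82, genotype by region 1.78, adjusted p = 0.00285). Car2, carbonic anhydrase of red cell precursors, stood in low-share spots at 2927 and 1327 in the wild types and 216 and 429 in the knockouts and in high-share spots at 376 and 253 in the wild types and 107 and 297 in the knockouts (genotype by region 1.94, adjusted p = 0.0014). For Alad, an enzyme of heme synthesis, the low-share levels were 491 and 281 in the wild types and 62.2 and 63.5 in the knockouts and the high-share levels 102 and 95.3 in the wild types and 63.4 and 59.7 in the knockouts (genotype by region 1.95, adjusted p = 0.0014). Hist1h1d, Hist1h1b and Hist1h3c, histone genes named by rank and not from a list, had genotype by region terms of 1.93, 1.90 and 1.87. Hist1h1d stood at 2233 and 1772 in the wild types and 309 and 361 in the knockouts in low-share spots. Histone genes of this cluster are close copies of each other and may share probe signal. In each of these genes the low-share spots of the wild types were the highest of the 4 sets of spots.

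Other genes differed more in high-share spots. Prg2 stood in low-share spots at 19.2 and 14.5 in the wild types and 9.99 and 12.3 in the knockouts, where the knockouts were not higher (log2 fold change -0.63, adjusted p = 0.136; genotype by region 2.45, adjusted p = 0.0014). With Ighm left out of the share that term turned to -0.58, and Prg2 no longer passed in the highest 25% of spots (log2 fold change 0.44, adjusted p = 0.443). Jchain stood in low-share spots at 355 and 322 in the wild types and 347 and 419 in the knockouts (genotype by region 1.75, adjusted p = 0.0361), and Ighg2b at 63 and 84.7 in the wild types and 324 and 341 in the knockouts (1.43, adjusted p = 0.0401). Ighg2b was thus higher in knockout spots of both kinds. Plasma cell genes shared spots with Ighm, which chose the spots, so these terms are not independent of the rule. With Ighm left out of the share, the high-over-low ratio of Jchain was lower in the knockouts (0.0997 and 0.0944) than in the wild types (0.220 and 0.20). With the 12-gene share the test of genotype by region also passed for Xcr1 (1.08, adjusted p = 0.0388) and Top2a (1.27, adjusted p = 0.0228). Cr2 had the opposite pattern. Its low-share levels were 182 and 91.5 in the wild types and 642 and 643 in the knockouts (genotype by region -1.62, adjusted p = 0.0014). The low-share spots of the knockouts held nearly as much Cr2 as their high-share spots (ratios of 1.05 and 1.15, above), whereas those of the wild types held less.

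**Figure D5:**
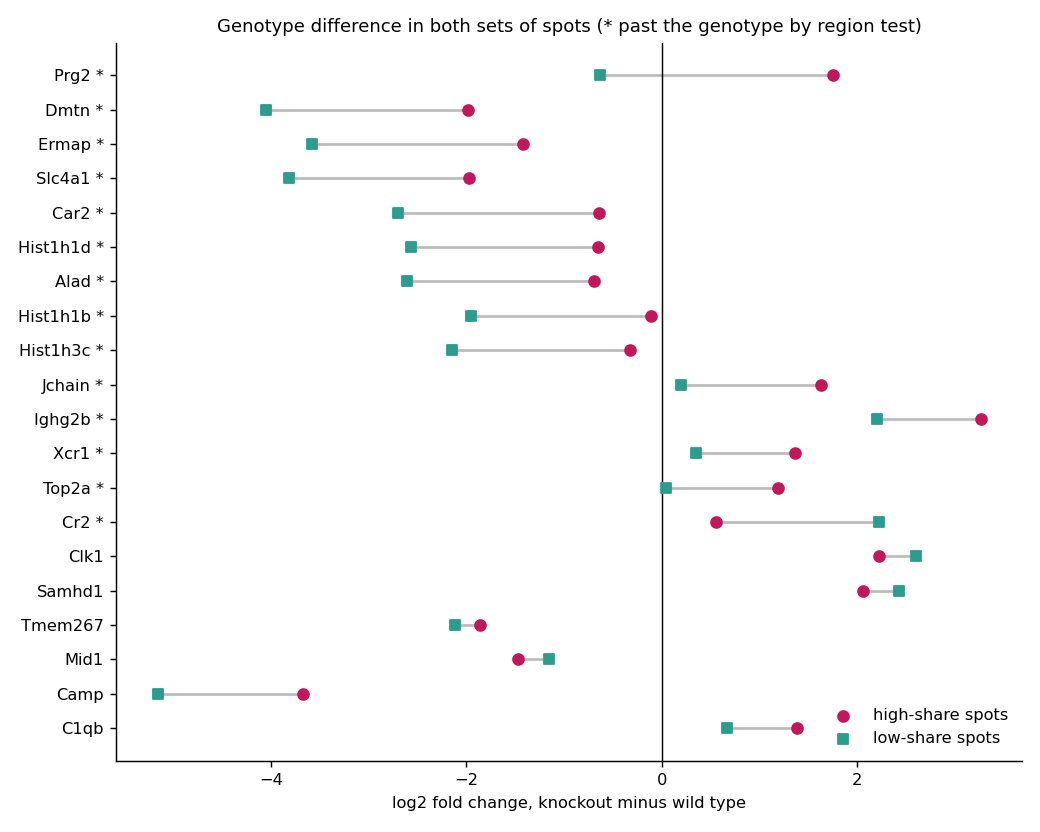
Log2 fold change (knockout minus wild type) in high-share spots (circles) and low-share spots (squares) for 20 genes; an asterisk marks an edgeR adjusted p under 0.05 for genotype by region. Prg2 lies at 1.76 in high-share and -0.63 in low-share spots, Car2 at -0.64 and -2.70, and Clk1 at 2.22 and 2.61.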

How the data were processed

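Visium sections of formalin-fixed, paraffin-embedded spleens hybridized with mouse whole-transcriptome probes were used: 2 wild-type and 2 C1qa knockout sections, grouped by GEO labels. The authors processed reads with Space Ranger (4.0.1 in the matrix headers, build mm10 per the labels) and deposited raw UMI counts per gene and in-tissue spot, not normalized, with other tables of barcodes, features and array positions. The gene lists, the rule for spots and the comparisons were chosen with earlier results of these data known.

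Spots were selected on their measured lymphoid share, so the 12 rule genes carry no test. UMI counts were summed per section over the highest and the lowest 25% of spots (1044683 to 5366993 UMIs). Genotypes were compared in edgeR 4.0.16 by its quasi-likelihood test (filterByExpr, TMM, genotype alone) in R 4.3.3 with limma 3.58.1, and genotype by region with section terms over 8 sums, at a Benjamini-Hochberg adjusted p under 0.05 over all genes tested. Levels are CPM divided by TMM factors over the 8 sums. Intervals and floors (3 counts) cover counting error only. Genes were named by a rule: the C1q genes, the 12 rule genes, the 12 higher and 12 lower genes ranked first by adjusted p, given a mean of at least 20 counts per section and groups that did not overlap, up to 3 more per list, and 6 for genotype by region; further list members that passed, region markers and other genes named beside them were chosen after their values were seen. Of 20 lists, 19 are shown by counts and the rule list by levels. Region ratios and spot correlations are descriptions. Some list members are counted but not reported here by name.

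DESeq2 1.42.0, other scalings, filters, spot choices and leave-one-out fits were the alternatives. The 2 settings without Ighm and with all passing spots were added after seeing the data. Tested on simulated counts with 200 changed genes, the fit of genotype in high-share spots recovered 41.5% at a log2 fold change of 1 (2 false calls among 17617 genes) and 94.5% at 2 (12 false calls among 17594). The simulation gave every gene the same dispersion (0.02) and the sections of a genotype the same expected shares. Its false calls therefore do not cover differences in spot make-up between sections. Replicates of a genotype were not duplicates (chi-square per degree of freedom 60.6 and 14.7). RefSeq promoters and coordinates are of GRCm38.p6; C1qa had no entry among the promoters used here. Images were not used here.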

Additional observations from a re-analysis of the deposited data

Results flagged for a closer look

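The genotype difference was tested between high-share and low-share spots of the same sections, and 515 genes passed. For Prg2 the knockout minus wild-type difference was 2.45 higher (log2) in high-share spots. The term was 1.94 for Car2, 1.93 for Hist1h1d, 1.95 for Alad, 1.90 for Hist1h1b and 1.87 for Hist1h3c. In the last 5 genes the wild-type low-share spots were the highest of the 4 sets.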

How the results depend on the processing

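In high-share spots 1166 genes were called. The number called was 448 with DESeq2 (441 of the 1166 among them), 775 with upper-quartile factors (522 shared), 132 with the highest 10% of spots, 2275 with the highest 50% (1029 shared), 31 with interior spots, 222 with sums thinned to the shallowest section and 4128 with all passing spots (1008 shared). Leaving out 1 section gave 127 to 1528, the 127 without KO2. For genotype by region (515), DESeq2 called 71, the highest 10% 1259 and the share without Ighm 1187, and leaving out 1 section gave 91 (without KO2) to 4380 (without WT2), with 228 without WT1 and 183 without KO1. The causes were not tested. Interior and 10% settings and thinned sums hold fewer counts, and the interior and 10% settings also hold other sets of spots. The deviations of wild-type and knockout sections of the same number had a correlation of 0.026 over 13760 genes. With so few sections per genotype, this value cannot show whether sections of the same number shared a litter or batch. With the replicate block 1552 genes passed. Of 81 named genes past the test, 3 turned direction under any alternative, all with the share without Ighm: Mrc1 (-0.24), Sdc1 (-0.64) and Tnfrsf17 (-0.13). Prg2 turned for genotype by region (-0.58). Among the other values of these genes, 1151 stayed past the threshold and 356 did not, 62 of them with interior spots, 41 with the highest 10% of spots, 40 without KO2 and 40 with thinned sums. The depth of WT2 (1044683 UMIs) limits low genes most.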

Other observations

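With Ighm left out of the share, a setting chosen after seeing the data, the highest 25% of spots held follicle genes in all 4 sections. Cr2 was 5.44, 4.35, 3.36 and 3.97 times its level in the lowest 25%, and Jchain 0.220, 0.20, 0.0997 and 0.0944 times. Cd3e was below 1 in the knockouts (0.640 and 0.725) and above 1 in both wild types, WT2 included (1.60 and 2.06). In these spots Cr2 stood at 789 and 420.4 in the wild types and 1457 and 1658 in the knockouts scaled CPM (log2 fold change 1.36, edgeR adjusted p = 2.82e-05), higher in 2 of 2 knockouts than in either wild type. Cxcl13, the chemokine of B cell follicles, stood at 17.4 and 10.5 in the wild types and 32.1 and 62.1 in the knockouts (1.63, adjusted p = 0.000215). Over all genes tested in these spots, 6.07% were higher in the knockouts and 1.18% lower. Of 26 B cell genes outside the rule, 6 were higher and 0 lower, and of 11 class II presentation genes 5 and 0. Igha had levels of 219 and 557 in the wild types and 100.4 and 90.1 in the knockouts (log2 fold change -1.97, adjusted p = 5.61e-07). Of 18 erythroid genes, 11 were lower, with a median log2 fold change of -1.10, so that this list was lower under both choices of spots. Cr2, Cxcl13 and Igha were picked after their values were seen.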
